A study of Homo sapiens with 8 samples.

Results

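The layout of 3 chromatin features on the autosomes of SUDHL6, an established cell line of diffuse large B cell lymphoma, was described from ChIP-seq island lists for trimethylated lysine 27 of histone H3 (H3K27me3), for EZH2 and for trimethylated lysine 4 of histone H3 (H3K4me3). All islands of the 3 SUDHL6 lists on chromosomes 1 to 22 were taken, 27898 of the 58757 islands deposited for the series. They comprised 13117 H3K27me3, 1500 EZH2 and 13281 H3K4me3 islands. The cells were untreated, the 3 antibodies came from Cell Signaling, and each antibody had 1 library. HT, the other untreated lymphoma line of the series, was set beside SUDHL6 for some of the measures, with 29952 islands on the autosomes.

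EZH2 provides the enzymatic activity of Polycomb repressive complex 2 and methylates lysine 27 of histone H3. H3K27me3 marks repressed chromatin and can spread into broad domains, because the complex binds the mark that it writes. H3K4me3 is placed by other methyltransferases, stands mainly at promoters in use, and hinders Polycomb repressive complex 2 on the same histone tail, although stem cells and lymphocytes carry promoters with both marks. In germinal centre B cells, from which many of these lymphomas arise, EZH2 is abundant and holds differentiation genes silent.

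An island is a stretch of the genome that the authors called as enriched. H3K27me3 islands covered 51.2 Mb, EZH2 islands 8.75 Mb and H3K4me3 islands 32.2 Mb, which is 1.78%, 0.304% and 1.12% of the autosomes. The median island was 3000 bp wide for H3K27me3, 4500 bp for EZH2 and 2100 bp for H3K4me3. H3K27me3 islands stood closest together, with a median gap of 15.15 kb to the next island of the same list, against 74.1 kb for H3K4me3 and 274 kb for EZH2. Without replicates no difference below could be tested against the spread between libraries. The intervals given are 95% intervals (exact binomial for shares, order statistics for medians) and cover counting error only, and neighbouring bases and islands are not independent. The depth of the libraries is unknown, so a stretch without an island may still carry the mark. Depth, antibody and list length cannot be told apart as sources of a difference between lists. No gene annotation of the files' genome build (hg19) was used, so islands were not assigned to genes and the B cell identity of the line was not checked.

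Most covered bases in SUDHL6 carried 1 feature alone. The union of the lists was 86.5 Mb, and 2 or 3 antibodies met on 5.57 Mb of it, or 6.44% (6.37 to 6.50%). H3K27me3 alone held 46.1 Mb, H3K4me3 alone 31.3 Mb and EZH2 alone 3.42 Mb. H3K27me3 with EZH2 was the main shared combination, at 4.72 Mb. EZH2 with H3K4me3 held 0.482 Mb, H3K27me3 with H3K4me3 held 0.236 Mb, and the 3 features together held 0.126 Mb. The lists were therefore shared very unequally: 55.4% (55.0 to 55.8%) of EZH2 bases lay under H3K27me3, but 1.13% (1.08 to 1.17%) of H3K4me3 bases did. In HT 36.9% (36.6 to 37.3%) of EZH2 bases lay under H3K27me3 and EZH2 with H3K4me3 held 1.70 Mb, 15.6% of its EZH2 bases against 5.51% in SUDHL6. With each SUDHL6 list held to its 1500 islands of highest score, 31.0% of EZH2 bases lay under H3K27me3, and 9.90% of covered bases lay under 2 or 3 antibodies.

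**Figure D1:**
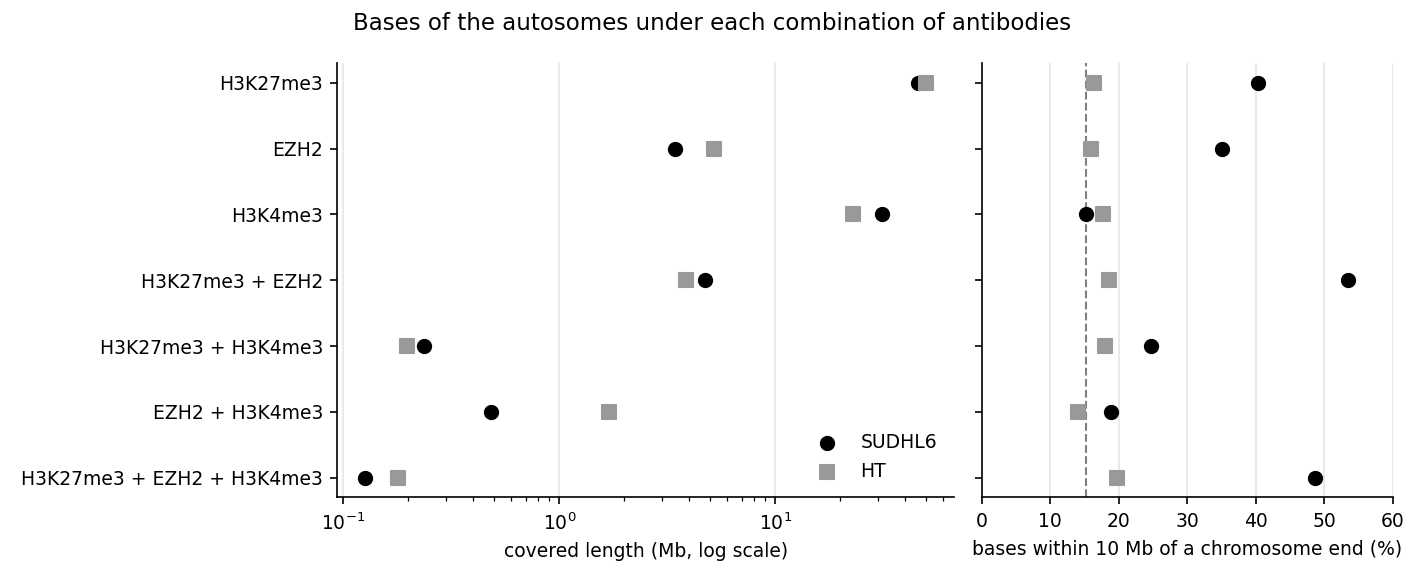
Left, covered length of the autosomes in Mb (log scale) under each combination of antibodies and no other, 1 point per line (black circles, SUDHL6; grey squares, HT). Right, the share of those bases within 10 Mb of a chromosome end, with the dashed line at the 15.3% of autosome length that lies there; in SUDHL6 H3K27me3 with EZH2 stands at 53.4% and H3K4me3 alone at 15.2%.

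The combinations differed in where they stood along the chromosomes. The outer 10 Mb at both ends of each autosome make up 15.3% of its length, taken over all autosomes. In SUDHL6 they held 53.4% of the bases under H3K27me3 with EZH2, 40.3% of those under H3K27me3 alone and 35.1% of those under EZH2 alone. They held 15.2% of bases under H3K4me3 alone and 18.9% of those under EZH2 with H3K4me3, close to the share of length. EZH2 bases were under H3K27me3 more often in these ends, at 66.7% (66.1 to 67.3%), than in the rest of the autosomes, at 46.5% (45.9 to 47.0%). The share of EZH2 bases under H3K4me3 went the other way, at 3.94% (3.71 to 4.19%) in the ends and 9.34% (9.03 to 9.66%) elsewhere. H3K27me3 itself was denser in the ends, with 21.2 Mb there and 30.0 Mb in the rest, and the shares were not adjusted for this. In HT the ends held 18.5% of bases under H3K27me3 with EZH2, and EZH2 bases under H3K27me3 stood at 41.2% in the ends and 36.1% elsewhere.

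Chromosomes differed as well. The share of EZH2 bases under H3K27me3 ran from 35.2% on chromosome 10 to 65.9% on chromosome 9, with a median of 53.0% over the 22 autosomes. H3K27me3 alone made up 37.1% of covered bases on chromosome 13 and 75.9% on chromosome 22. H3K4me3 alone made up 59.1% and 14.95%, and a larger share for 1 feature leaves less for the others. As shares of chromosome length both were higher on chromosome 22. There H3K4me3 covered 0.976% and H3K27me3 5.03%, against 0.562% and 0.365% of chromosome 13. The share of H3K4me3 bases under H3K27me3 was lowest on chromosome 21, at 0.0604%, and highest on chromosome 19, at 4.39%. The value for chromosome 21 rested on 0.3 kb. On chromosome 19, 54.15 kb of these bases were also under EZH2, and 38.7 kb of that lay in a single EZH2 island.

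EZH2 islands lay over H3K27me3 in a staggered way in SUDHL6. Of the 1500 EZH2 islands, 983 (65.5%, 63.1 to 67.9%) met H3K27me3, and 1239 of the 13117 H3K27me3 islands (9.45%, 8.95 to 9.96%) met EZH2, in 1290 overlapping pairs. EZH2 lay wholly inside the H3K27me3 island in 13.6% of pairs, and the H3K27me3 island lay wholly inside EZH2 in 29.5%. In the remaining pairs except 1 identical pair, the 2 islands were offset and crossed at 1 edge. EZH2 was the wider island in 62.9% (60.2 to 65.6%) of pairs. The centres of the islands were a median of 1875 bp apart, and the EZH2 centre fell in the middle 50% of the H3K27me3 island in 35.2% of pairs. In HT the centres were 900 bp apart, and 54.7% of EZH2 centres fell in that middle part. The EZH2 islands of these pairs were narrower in HT, with a median of 3900 bp against 6150 bp in SUDHL6. The offset had no preferred side, with the EZH2 centre at lower coordinates in 641 pairs and at higher coordinates in 637.

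EZH2 ran on across some of the breaks in H3K27me3. Of the 983 EZH2 islands with H3K27me3, 266 (27.1%, 24.3 to 30.0%) met 2 or more H3K27me3 islands, up to 5, against 8.99% (7.44 to 10.7%) in HT. Width and spacing were not held equal here. HT EZH2 islands were narrower, at a median of 3600 bp against 4500 bp in SUDHL6. The median gap between H3K27me3 islands was wider in HT, at 24.3 kb against 15.15 kb. Of 2173 gaps of up to 1.5 kb between neighbouring H3K27me3 islands, 275 (12.7%, 11.3 to 14.1%) were filled by EZH2 from end to end, and 8 were filled by H3K4me3. The filled share was 2.73% (2.03 to 3.59%) for 1795 gaps over 1.5 and up to 5 kb. The reverse was also seen: of 76 gaps of up to 1.5 kb between EZH2 islands, H3K27me3 filled 45 (59.2%, 47.3 to 70.4%). Most short breaks in EZH2 were therefore under H3K27me3, while most short breaks in H3K27me3 were not under EZH2. List length was not held equal in these counts, and EZH2 islands covered 8.75 Mb against 51.2 Mb for H3K27me3. The 4.72 Mb under both without H3K4me3 made up 54.0% of EZH2 bases and 9.22% of H3K27me3 bases. These 2 shares of 1 overlap differ through list length alone and lend no support to the contrast in gaps.

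The 3.42 Mb of EZH2 alone in SUDHL6 were of 2 kinds. Segments that touched an H3K27me3 island on 1 side held 1.33 Mb, or 39.0% of these bases, in 785 pieces with a median of 1350 bp. Pieces between 2 H3K27me3 islands held a further 0.328 Mb in 314 segments with a median of 750 bp. The other kind touched no H3K27me3 on either side and held 1.76 Mb, 51.4% of the bases, in 594 segments with a median of 2700 bp. In HT that second kind held 78.6% of bases under EZH2 alone. It includes pieces that touched H3K4me3. Segments that touched neither other list on either side held 40.8% of these bases in SUDHL6, in 351 segments, and 48.7% in HT.

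Whole EZH2 islands without H3K27me3 numbered 517. Their median distance to the nearest H3K27me3 island was 46.8 kb (33.45 to 57.0 kb). For the 354 that met no H3K4me3 island either, the median was 29.4 kb (22.95 to 41.55 kb), and for the 163 that met H3K4me3 it was 94.7 kb (72.9 to 183 kb). The neighbour lay at lower coordinates for 250 of the 517 and at higher coordinates for 267. The 3 EZH2 islands farthest from H3K27me3 lay on chromosome 2 from 149827051 to 149830200, on chromosome 6 from 88875901 to 88879500 and on chromosome 10 from 22629151 to 22631400. Their signed distances were 9750.9, -8524.5 and 7943.4 kb, negative where the neighbour stands at lower coordinates. The island on chromosome 10 was covered by H3K4me3 over 100% of its length and that on chromosome 6 over 41.7%, while that on chromosome 2 met neither mark. In HT the islands on chromosomes 6 and 10 were fully covered by both H3K27me3 and EZH2, and that on chromosome 2 by neither.

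**Figure D2:**
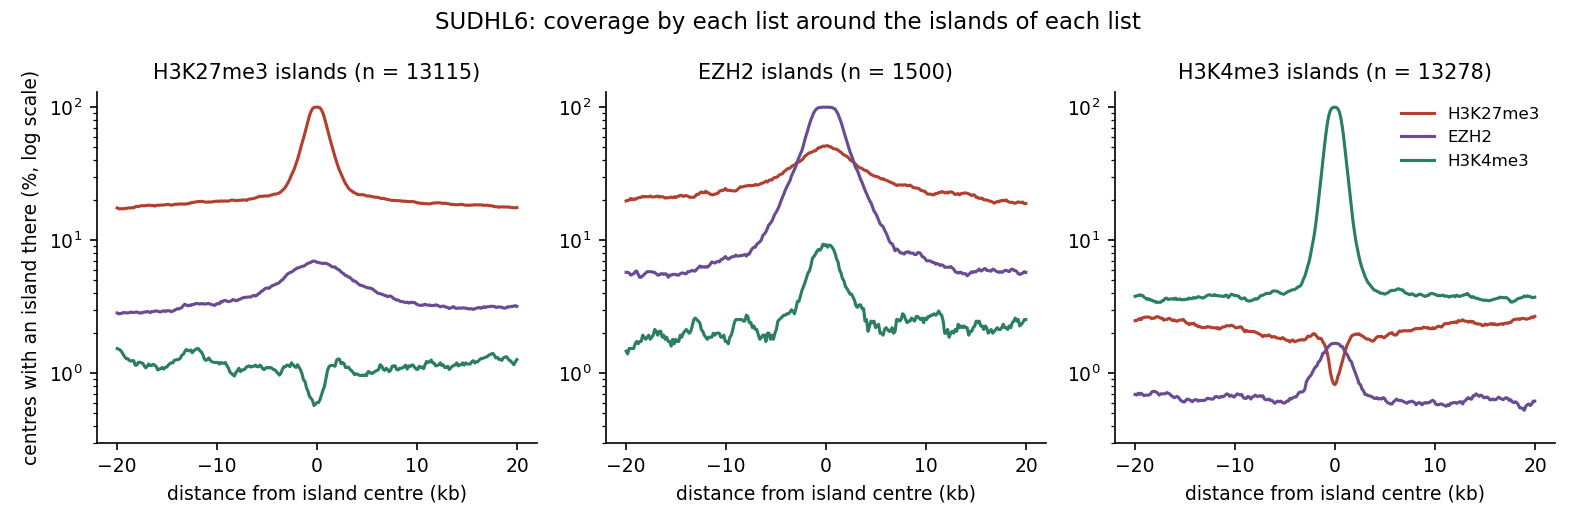
Percent of SUDHL6 islands with an island of each list at a given distance from their centre (x axis, kb; y axis, percent on a log scale), for islands of the H3K27me3, EZH2 and H3K4me3 lists from left to right. Around H3K4me3 centres the EZH2 line peaks at 1.68% while the H3K27me3 line has its minimum there, at 0.821%.

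H3K4me3 and H3K27me3 kept apart at short range in SUDHL6, while EZH2 did not keep apart from H3K4me3. At the centres of H3K4me3 islands, 0.821% lay under H3K27me3, against 1.78% and 1.85% at 3 kb to either side and 2.60% and 2.55% at 18 kb. EZH2 behaved in the opposite way and covered 1.68% of H3K4me3 centres, against 0.761% and 0.693% at 3 kb and 0.731% and 0.610% at 18 kb. The same dip was seen from the other list, since H3K4me3 covered 0.602% of H3K27me3 centres and 1.15% and 1.11% of positions 3 kb away. In HT the share under H3K27me3 was 1.62% at H3K4me3 centres, 1.56% and 1.66% at 3 kb, and 2.002% and 2.11% at 18 kb, so it was lower at the centre than at 18 kb but not lower than at both positions 3 kb away. EZH2 covered 7.23% of HT H3K4me3 centres.

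The few contacts between H3K4me3 and H3K27me3 in SUDHL6 were mostly at their edges. The lists overlapped in 329 pairs, with 323 H3K4me3 and 324 H3K27me3 islands. Islands crossed at 1 edge in 41.6% of pairs with H3K4me3 at lower coordinates and in 39.8% with it at higher coordinates. The median overlap was 600 bp, and 131 pairs (39.8%) overlapped by 450 bp or less, 54 of them by a single 150 bp window. The H3K4me3 centre fell in the middle 50% of the H3K27me3 island in 16.1% of pairs. For EZH2 and H3K27me3, 4.65% of pairs overlapped by 450 bp or less.

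Island edges of H3K4me3 and H3K27me3 also met more tightly than those of the other pairs of lists. For islands that did not lie inside each other, the distance between facing edges was taken, positive for a gap and negative for an overlap. Among 737 such pairs of edges within 3 kb, 244 (33.1%, 29.7 to 36.6%) lay within 300 bp of each other, in 5 of the 41 steps of 150 bp. The count was highest at a distance of 0, where 59 pairs abutted without overlapping, and fell to 21 pairs at a gap of 600 bp. It fell further on the overlap side, to 34 pairs in all for overlaps of 1500 to 3000 bp, against 173 for gaps of that size; an overlap of this kind cannot exceed the width of either island. EZH2 and H3K27me3 had 944 pairs of facing edges within 3 kb, of which 96 (10.2%, 8.32 to 12.3%) lay within 300 bp. EZH2 and H3K4me3 had 158, of which 11 (6.96%, 3.53 to 12.1%) did, and none abutted. HT showed the same order, with 23.4% (19.9 to 27.1%) for H3K4me3 and H3K27me3, 7.56% for EZH2 and H3K27me3 and 6.52% for EZH2 and H3K4me3.

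**Figure D3:**
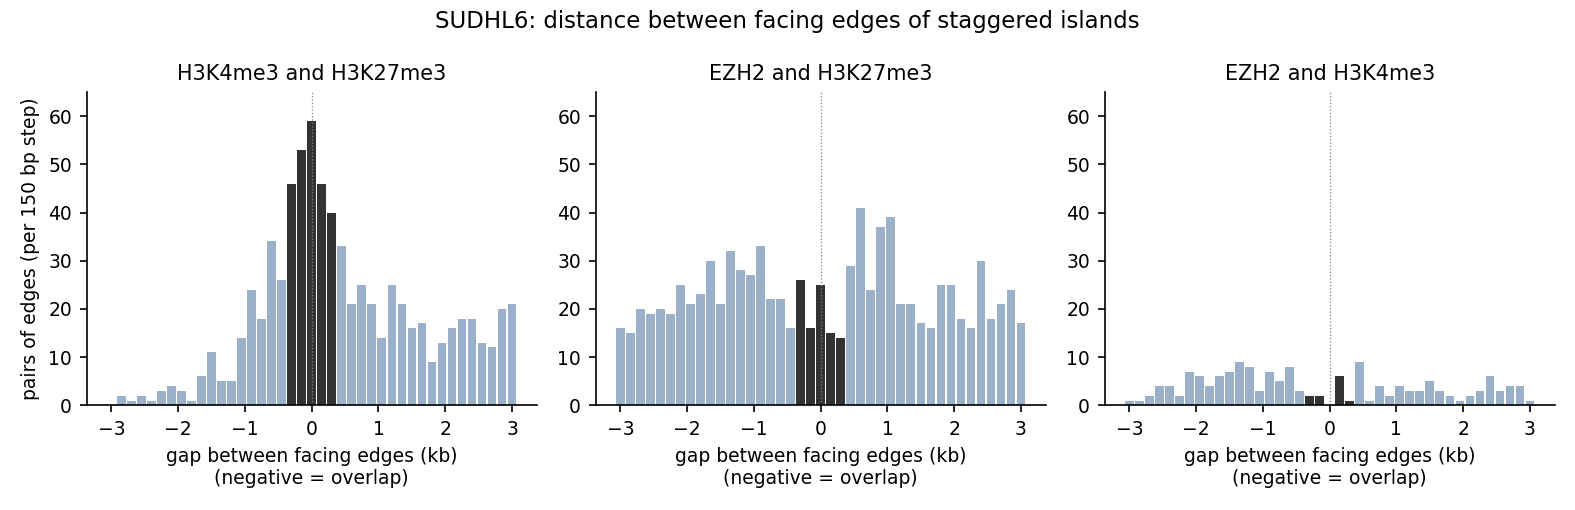
Number of pairs of facing island edges in SUDHL6 (y axis) by the distance between them in kb (x axis, steps of 150 bp, negative for overlaps), for the 3 pairs of lists. Dark bars mark distances of up to 300 bp, which hold 244 of 737 pairs for H3K4me3 and H3K27me3, 96 of 944 for EZH2 and H3K27me3 and 11 of 158 for EZH2 and H3K4me3.

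Away from these contacts the gap between H3K4me3 and H3K27me3 islands depended on the list it was measured from. For scale, neighbouring islands of the same list had a median gap of 74.1 kb for H3K4me3 and 15.15 kb for H3K27me3. The 12958 H3K4me3 islands without H3K27me3 had a median gap of 175.2 kb (168.0 to 182.85 kb) to the nearest H3K27me3 island, and 5590 of them lay over 250 kb away. The neighbour was at lower coordinates for 6301 and at higher coordinates for 6657. H3K4me3 islands that met EZH2 but not H3K27me3 were nearer to H3K27me3, at 84.0 kb (50.85 to 127.65 kb). Seen from H3K27me3, the nearest H3K4me3 island was 75.9 kb away, or 46.95 kb (41.1 to 49.65 kb) for H3K27me3 islands with EZH2 and 79.65 kb (77.7 to 82.05 kb) for those without it. In HT the median gap from H3K4me3 to H3K27me3 was 91.35 kb. This gap grows as a list is shortened, and it was 1030.35 kb in SUDHL6 with each list held to 1500 islands. Only 29 SUDHL6 H3K4me3 islands had an H3K27me3 island within 5 kb on both sides.

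EZH2 and H3K4me3 met in 262 pairs, and the H3K4me3 island lay within the EZH2 island in about as many pairs as it did not. H3K4me3 was wholly inside EZH2 in 50.4% (44.2 to 56.6%) of pairs, and EZH2 was inside H3K4me3 in 8.78%. The median overlap was 1650 bp, and the median H3K4me3 island of these pairs was 100% covered. Of the bases under EZH2 with H3K4me3, 83.9% stood in segments with no H3K27me3 on either side. The 163 EZH2 islands that met H3K4me3 without H3K27me3 had a median width of 3450 bp, the same as the 354 that met neither mark, against 5550 bp for the 898 with H3K27me3 alone.

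The score of an island is the authors' own value, and what it measures is unstated. It was used as a percentile within its list and never compared between antibodies. The score rose with width, with a Spearman correlation across islands of 0.96 for H3K27me3, 0.94 for EZH2 and 0.72 for H3K4me3, so the percentile of score per kb among islands of like width is given too. The classes of width were under 1 kb, 1 to 2 kb, 2 to 5 kb, 5 to 10 kb, and 10 kb or wider.

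H3K27me3 islands with EZH2 ranked high in SUDHL6. Their median percentile was 75.2 (71.9 to 77.0), against 47.7 (46.7 to 48.7) for the 11878 without EZH2, and 27.4% of them were in the top 10% of the list. Within classes of width, the median per kb was 63.7 (60.8 to 67.0) with EZH2 and 48.3 (47.8 to 49.4) without. The HT medians with EZH2 were higher, at 84.9 (83.4 to 86.3) by score and 86.7 (84.8 to 88.0) per kb within classes of width. The share of islands that met EZH2 was 2.94% in the lowest 10% of the list by score and 25.8% in the highest 10%, and by score per kb it was 3.51% and 15.8%. By width it was 3.70% (2.36 to 5.51%) below 1 kb and 32.1% at 10 kb or wider. H3K27me3 islands that met H3K4me3 but no EZH2 had a median percentile of 50.7 (46.7 to 58.9) by score, but 63.0 (57.8 to 67.9) per kb within classes of width.

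The same held for EZH2 with H3K27me3. EZH2 islands with H3K27me3 had a median percentile of 64.0 (61.3 to 65.9) and those without 26.7 (24.9 to 29.7), and within classes of width the medians per kb were 57.0 (54.2 to 59.7) and 37.7 (32.9 to 40.9). In the lowest 10% of the list by score 31.5% met H3K27me3, and in the highest 10% 91.3%, while by score per kb the shares were 35.1% and 74.2%. Of the 178 EZH2 islands of 10 kb or wider, 91.6% met H3K27me3, against 50.5% (46.9 to 54.1%) of the 774 between 2 and 5 kb. Across the 1290 overlapping pairs the scores of EZH2 and H3K27me3 had a Spearman correlation of 0.45, or 0.33 per kb; pairs can share an island and each value scales with its width.

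**Figure D4:**
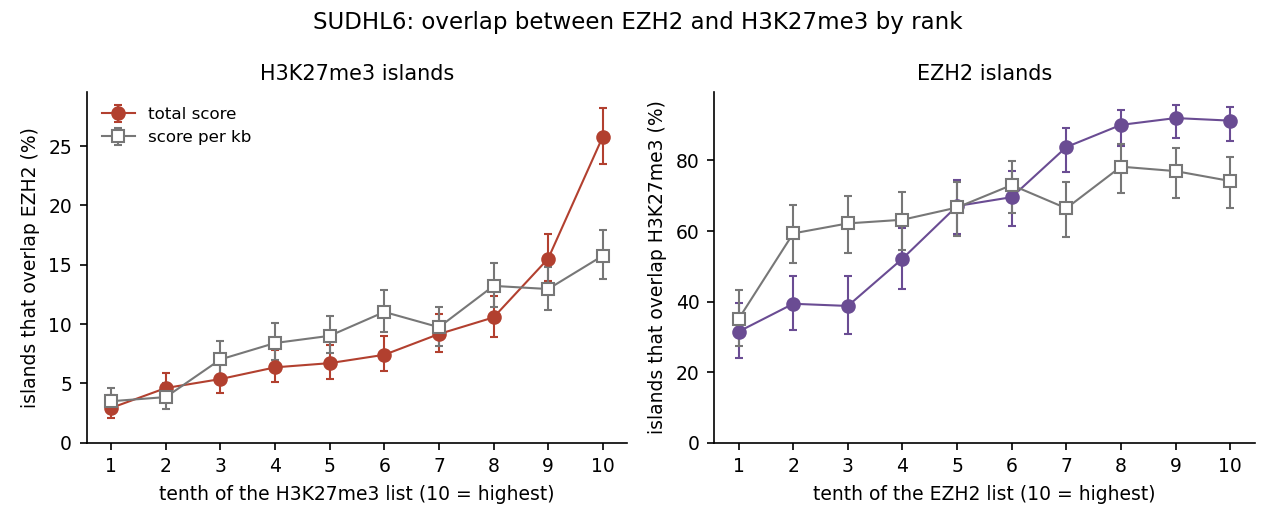
Percent of SUDHL6 islands that overlap the other list (y axis) by steps of 10% of the list (x axis, step 10 is the highest), ranked by score (filled circles) or by score per kb (open squares), with exact binomial 95% intervals. Left, H3K27me3 islands that meet EZH2, 2.94% in the lowest and 25.8% in the highest step of score; right, EZH2 islands that meet H3K27me3, 31.5% and 91.3%.

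H3K4me3 islands differed less in median rank between combinations than the islands of the other lists. The median percentile was 49.6 (48.8 to 50.4) for the 12766 H3K4me3 islands alone, 51.9 (44.9 to 56.9) for the 255 with H3K27me3, 56.3 (48.8 to 62.6) for the 192 with EZH2 and 46.5 (31.0 to 60.2) for the 68 with both. These intervals by score overlap. Per kb within classes of width the medians were 50 (49.1 to 51.0), 49.0 (45.5 to 54.1), 53.4 (47.2 to 61.8) and 44.9 (40.1 to 48.9) in the same order, and the interval of the 68 islands with both lay below that of H3K4me3 alone. With or without EZH2, 323 H3K4me3 islands met H3K27me3 in SUDHL6, with a median percentile of 51.9 (44.9 to 56.3). The 337 such islands of HT ranked lower in their list, at 35.0 (30.9 to 37.5). By score per kb, chosen here after its values were seen, 5.08% of SUDHL6 islands in step 4 of 10 of the list met H3K27me3, against 0.766% in the lowest and 1.35% in the highest step. The median percentile of the H3K4me3 islands with H3K27me3 depended on the setting, at 30.5 (22.1 to 39.3) for the 108 islands covered to at least 50% and 78.9 (28.6 to 90.4) for the 21 left with each list held to 1500 islands.

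**Figure D5:**
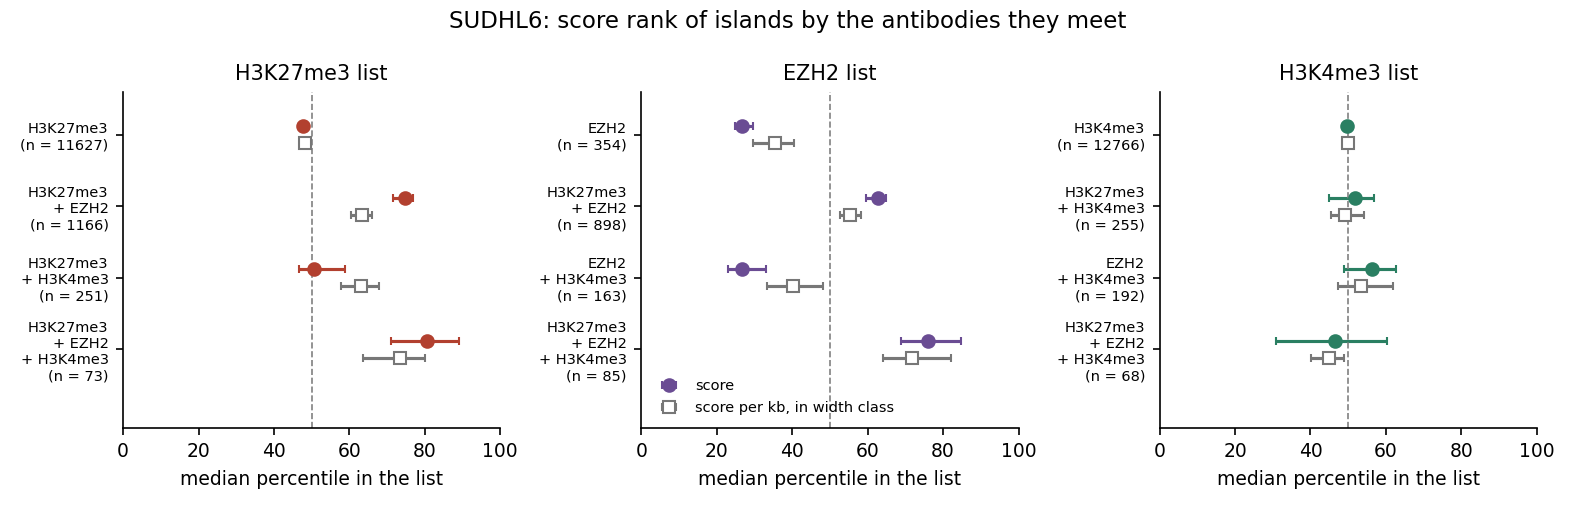
Median percentile of the score (filled circles) and of the score per kb within classes of width (open squares) for SUDHL6 islands by the antibodies they meet (y axis, with the number of islands), for the 3 lists, with 95% order-statistic intervals and a dashed line at 50. H3K27me3 and EZH2 islands that meet each other stand to the right of those that meet neither list, and the H3K4me3 medians lie between 44.9 and 56.3.

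The 3 features together stood on 126 kb in SUDHL6, in 70 segments on 16 of the 22 autosomes. This small class rested largely on chromosome 19, which held 54.15 kb or 42.8% of it. An EZH2 island on chromosome 19 from 50593951 to 50644200 (50.25 kb) alone held 38.7 kb, and 87.75 kb remained without it. That island had the highest score of the EZH2 list, 1111, and H3K27me3 covered 97.3% and H3K4me3 78.2% of it. The H3K4me3 island inside it, from 50604301 to 50643600, had the highest score (1144) of the H3K4me3 islands that met both other lists. In HT the same EZH2 island was 98.5% covered by EZH2 and met no H3K27me3 and no H3K4me3. The next widest segment under all 3 lists was also on chromosome 19, from 48424801 to 48434850 (10.05 kb), where HT had EZH2 on 92.5% and H3K4me3 on 46.3%. No filter for repeated or poorly mapped sequence was applied to these regions. Whether mapping contributes to their signal under all 3 antibodies was not tested.

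The widest segments of the other combinations were as follows in SUDHL6. No filter for repeated or poorly mapped sequence was applied here, and whether the width of any of them reflects mapping was not tested. H3K27me3 with EZH2 reached 29.1 kb on chromosome 11 from 1989451 to 2018550, in H3K27me3 and EZH2 islands with scores of 1290 and 723, each the highest of its list among islands with this combination, and HT had neither there. H3K27me3 with H3K4me3 reached 4.65 kb on chromosome 6 from 32818951 to 32823600, where HT had H3K4me3 on 93.5% and no H3K27me3. EZH2 with H3K4me3 reached 14.4 kb on chromosome 2 from 91666051 to 91680450, where HT had H3K27me3 on 85.4%, EZH2 on 99.0% and H3K4me3 on 20.8%. EZH2 alone reached 25.8 kb on chromosome 6 from 37060801 to 37086600, with no EZH2 in HT. H3K4me3 alone reached 48.75 kb on chromosome 9 from 68442601 to 68491350, with 93.2% under H3K4me3 in HT. H3K27me3 alone reached 49.35 kb on chromosome 6 from 43207651 to 43257000, with 27.7% under H3K27me3 in HT.

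Islands of any list that lay within 5 kb of each other were chained into 20724 composite stretches in SUDHL6. Of these, 54.2% held H3K4me3 only and 36.2% held H3K27me3 only, with a median of 1 island. Stretches with H3K27me3 and EZH2 numbered 681, had a median of 12.6 kb and 3 islands, and spanned 12.7 Mb, while the 262 with EZH2 only had a median of 3.45 kb. A stretch with more than 1 list must hold more than 1 island, so its greater length and island count follow in part from the definition. In HT the 938 stretches with H3K27me3 and EZH2 had a median of 6.30 kb. The longest stretch, on chromosome 6 from 33755101 to 33974250 (219.15 kb), held 12 H3K27me3 islands, 1 EZH2 and 1 H3K4me3 island, with 90.01% of its bases under H3K27me3. The next, on chromosome 16 from 88484401 to 88609350 (124.95 kb), held 14 H3K27me3 and 8 EZH2 islands and no H3K4me3 island. Read along the chromosome, the next island after an EZH2 island was H3K27me3 in 68.2% (65.8 to 70.6%) of cases in SUDHL6 and 45.5% (43.5 to 47.5%) in HT, and H3K4me3 in 28.1% and 48.5%. H3K27me3 islands made up 47.0% of all islands in SUDHL6 and 56.3% in HT, and H3K4me3 islands 47.6% and 35.4%. H3K27me3 thus followed EZH2 above its share of islands in SUDHL6 and below it in HT. That share is a rough reference, since H3K27me3 islands ran in series, followed by H3K27me3 in 70.4% of cases in SUDHL6 and 74.2% in HT. Nor is the order of islands a measure of overlap. In HT 48.8% of EZH2 islands met H3K27me3, which covered 1.88% of the autosomes.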

How the data were processed

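The submitters' processing notes name SICER as a tool and hg19 as the genome build. Per the names of the deposited lists, the window was 150 bp, the gap 450 bp and the FDR 1E-7. The authors deposited 1 list per library with a score for each island, whose meaning is not stated. H3K27me3 list names carry another normalization tag than the others, of unstated meaning, so scores stayed within their list. Nothing used here states the aligner, the control or the depth. The 2 input samples were not analysed here, and no islands were removed for lying in repeated or poorly mapped sequence.

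Positions count from 1. Coverage was joined on the 150 bp grid of the files, overlap meant at least 1 bp, and gaps ran from edge to edge. Intervals are at 95%. Regions named are drawn from the 3 widest segments and the island of highest score of each combination, the 3 EZH2 islands farthest from H3K27me3 and the 3 longest chained stretches. Measures, lists and rules were chosen with earlier results of these data known. Alternatives were the 50% of islands with the highest score, a minimum width of 1 kb, joining over 5 kb, no outer 10 Mb, lists of equal length, an overlap of at least 50%, score per kb, and distance between centres. The steps were written in Python 3.11.15 with numpy 2.4.6 and scipy 1.17.1, and figures were drawn with matplotlib 3.10.9. Simulated islands were used to check the shares of EZH2 and H3K4me3 bases under H3K27me3 and the median gap. Nearest neighbours and coverage were checked by a plain search on islands drawn from the SUDHL6 H3K4me3 list. The other measures were not checked in this way.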

Additional observations from a re-analysis of the deposited data

How the results depend on the processing

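Several values moved by more than their counting interval. The cause was not tested. Read depth is unknown and limits every list.

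The share of covered bases under 2 or 3 antibodies was 6.75% with the 50% of islands of highest score, 6.64% with islands of 1 list within 5 kb joined, 4.79% without the outer 10 Mb of each autosome, 9.90% with lists of equal length and 6.28% without chromosome 19. In the same order, without the last, the share of EZH2 bases under H3K27me3 was 61.1%, 62.1%, 46.5% and 31.0%. The share of H3K4me3 bases under H3K27me3 was 0.983%, 1.31%, 0.891% and 1.22%, and it was 0.958% without chromosome 19 and 0.995% without chromosome 6. The median gap from H3K4me3 to H3K27me3 was 246.15 kb with the 50% of highest score, 183.9 kb with islands of at least 1 kb, 226.35 kb without the outer 10 Mb, 1030.35 kb with lists of equal length and 187.5 kb without chromosome 19.

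The median percentile of H3K27me3 islands with EZH2 was 85.8 with islands joined, 66.4 with lists of equal length, 70.5 for an overlap of at least 50% and 65.5 by score per kb. That of EZH2 islands with H3K27me3 was 56.7 with the 50% of highest score, 66.2 without the outer 10 Mb, 81.9 with lists of equal length, 67.5 for an overlap of at least 50% and 55.4 by score per kb. That of H3K4me3 islands with H3K27me3 was 61.4, 78.9 and 30.5 with the 50% of highest score, lists of equal length and an overlap of at least 50%. Medians with EZH2 and H3K27me3 meeting each other stayed above 50 in every setting run.

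Leaving out chromosomes 6 or 19 was chosen after seeing the data, as were the settings for the 2 values that follow. The share of facing H3K4me3 and H3K27me3 edges within 300 bp ran from 25%, on 20 pairs with lists of equal length, to 34.4% without chromosome 6. The length under all 3 antibodies ran from 64.95 kb without the outer 10 Mb to 155.7 kb with islands joined, and was 72.3 kb without chromosome 19. No paired analysis was possible because each group has 1 library.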
